A study of Mus musculus with 1536 samples.

Results

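Ribosomal protein genes encode the protein part of the small and large subunits of the cytosolic ribosome. They were followed here in single lymphatic endothelial cells (LECs) of the adult mouse nasopharynx. The genes were chosen by symbol: a row had to start with Rps or Rpl and a digit, without the pseudogene mark -ps, and had to be found, with at least 1 read, in 50% or more of the cells. Of 23168 genes, 97 had such a symbol and 78 of these passed. Among the 78 were 72 ribosomal proteins themselves (30 of the small and 42 of the large subunit), 4 copies of such genes (*Rps27l*, *Rps27rt*, *Rpl22l1* and *Rpl37rt*) and 2 kinases that share the name only, *Rps6kb1* and *Rps6ka3*. The kinases were left out of all sums, so 76 genes entered them. Since presence in cells chose the members, their wide presence is a description and not a finding.

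Nasopharyngeal mucosa of 30 mice of both sexes was pooled, and CD31+ PDPN+ cells were sorted and sequenced one by one with Smart-seq3, which reads whole transcripts of cells held in separate wells. The labels give the strain as c57bl/6 and no treatment, the mice were aged 10–12 weeks, and there was a single group, Adult_nphx. Neither the labels nor the column names tie a cell to a mouse or a plate, so all adult cells count as 1 pooled sample, SDs describe the spread over these cells, and no test between groups of cells was made. Aged mice were not analysed here.

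Each ribosome needs nearly every ribosomal protein in equal number, and the genes are among the most strongly transcribed in most cells. Their messenger RNAs typically start with a C followed by a run of pyrimidines, the 5′ terminal oligopyrimidine tract, through which mTOR signalling and LARP1 set how much of each message is translated. Mammalian genomes also carry many processed copies of these genes, some of them nearly identical to the parent in sequence.

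The cells carried the LEC genes. *Mmrn1* was found in 100% of cells, *Flt4*, the receptor for VEGF-C, in 99.8% and *Prox1*, the factor that defines lymphatic identity, in 97.7%. *Pecam1*, *Cdh5* and *Pdpn* were found in 99.6%, 99.2% and 95.2%, and *Lyve1* and *Ccl21a* in 86.8% and 79.2%. Of the immune genes, *Ptprc* of leukocytes had no read in any cell. *Lyz2* was found in 7.96% of cells, *Cd52* in 1.43%, *Coro1a* in 0.475% and *Tyrobp* in 0.356%. Of the fibroblast genes, *Dcn* was found most often, in 12.4%. *Pecam1* and *Pdpn* encode the proteins of the sort. Reads per cell ranged from 7433 to 3524358 (median 350746) and genes per cell from 2001 to 7236. At least 3 of 5 immune genes were found in 2 cells and at least 3 of 5 fibroblast genes in 1 cell. At least 3 of 5 blood endothelial genes were found in 84 cells, and of this list *Emcn* was found in 94.2% and *Plvap* in 77.8% of cells. *Xist* was found together with a Y chromosome gene in 52 wells.

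Starts of 5 member genes are shown first, because the tract at the start is the sequence feature that ribosomal protein genes are known for, with the starts of 2 copies for comparison. Each line holds 15 bases before and 15 bases from the annotated RefSeq start (GRCm38.p6), 5′ to 3′ on the gene's strand. Capitals mark the unbroken run of pyrimidines that begins at the start. Both copies start with a purine at the annotated position and so have no capitals. The 5 members shown all have such a run and do not stand for the members as a whole. Only 13 of 68 windows of the 76 genes had a C and at least 4 pyrimidines at the annotated start. Without the copies it was 12 of 63 windows, so a copy not shown also had such a start. The 2 copies shown therefore do not stand for the copies as a whole. A difference between members and copies was not tested.

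*Rps27* (chr3:90213634-90213663, minus strand): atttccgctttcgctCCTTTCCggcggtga
*Rps6* (chr4:86857353-86857382, minus strand): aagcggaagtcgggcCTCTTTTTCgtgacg
*Rps18* (chr17:33955651-33955680, minus strand): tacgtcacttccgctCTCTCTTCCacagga
*Rpl15* (chr14:18270972-18271001, minus strand): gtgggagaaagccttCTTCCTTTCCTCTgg
*Rpl28* (chr7:4792950-4792979, plus strand): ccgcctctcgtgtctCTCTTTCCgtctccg
*Rps27l* (chr9:66946071-66946100, plus strand): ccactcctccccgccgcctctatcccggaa
*Rpl22l1* (chr3:28805493-28805522, plus strand): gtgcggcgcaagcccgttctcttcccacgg

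RefSeq start windows were matched for 57 of the 76 genes, with 68 windows in all. A C followed by at least 4 pyrimidines stood exactly at the annotated start in 19.1% of these windows, against 2.51% of 32851 windows over all genes. A run of at least 8 pyrimidines lay within 50 bases of the start, on the gene's strand, in 80.9% against 35.7%. The letters CTTTCC, searched on both strands within the same 50 bases, were held by 33.8% against 8.97%. The last 2 searches can overlap, as CTTTCC is itself made of pyrimidines. These shares describe the windows, and annotated starts can lie some bases from the true ones.

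The 76 genes took 7.49% of all reads (34658300 of 462634140, exact 95% interval 7.489–7.494%, counting error only). Per cell the share was 0.564% at the lowest, 7.64% at the median and 22.7% at the highest, with a mean of 7.79 ± 2.62% (SD over all adult cells). The middle 50% of cells lay between 6.08% and 9.25%. The share differed widely between single cells of 1 pool, while the balance of the subunits moved less. The ratio of large to small subunit reads had a median of 1.05 and a mean of 1.08 ± 0.166 (SD).

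The cell with the lowest share had 150814 reads, 49 of the 76 genes and 8.33% mitochondrial reads, near the 10% at which the authors removed cells. The cell with the highest share had 2235 genes, all 76 members and nearly no *Prox1* (0.0623 reads per 10000). Among the 5 cells with the highest share, 3 had 0.0918 or fewer reads per 10000 of *Prox1*, and none of them held any of the 5 immune or 5 fibroblast genes. Across cells the share ran weakly with total reads (Spearman's rho of −0.14), genes per cell (−0.03) and mitochondrial share (−0.10). The reads of a cell are the denominator of its share, so these are descriptions only.

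Levels are given as mean reads per 10000 reads of a cell, divided by the merged exon length in kilobases (kb) where genes are compared with each other. Over the 72 ribosomal proteins the level per kb ran from 0.162 to 22.2 with a median of 4.69, against a median of 0.285 over 2902 genes found in at least 50% of cells and with a known length. Small subunit genes had a median of 5.73 per kb and large subunit genes one of 3.92. Merged exon length counts rare isoforms too, so a gene with long alternative exons appears lower on this scale.

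*Rps15* of the small subunit was the highest with 22.2 ± 12.1 reads per 10000 per kb (SD over cells). Also high were *Rpl36* with 19.6 ± 12.1, *Rps29* with 18.1 ± 13.1 and *Rps14* with 15.5 ± 7.35. Neighbours in this order differed by less than their SD over cells. Of all members *Rps14* had the most reads, with a mean of 37.1 ± 17.6 reads per 10000 (SD) and values from 0 to 138.1 over the cells.

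At the other end stood *Rpl37rt* with 0.151 reads per 10000 per kb, *Rpl13a* with 0.162, *Rps27rt* with 0.333, *Rpl22l1* with 0.468 and *Rpl35a* with 1.01. Of these *Rpl13a* and *Rpl35a* are ribosomal proteins themselves, and the others are copies. Between *Rpl13a* and *Rpl35a*, the next ribosomal protein above it, lay a gap that, as a fold on the log axis, no other neighbours among the 72 genes showed.

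**Figure D1:**
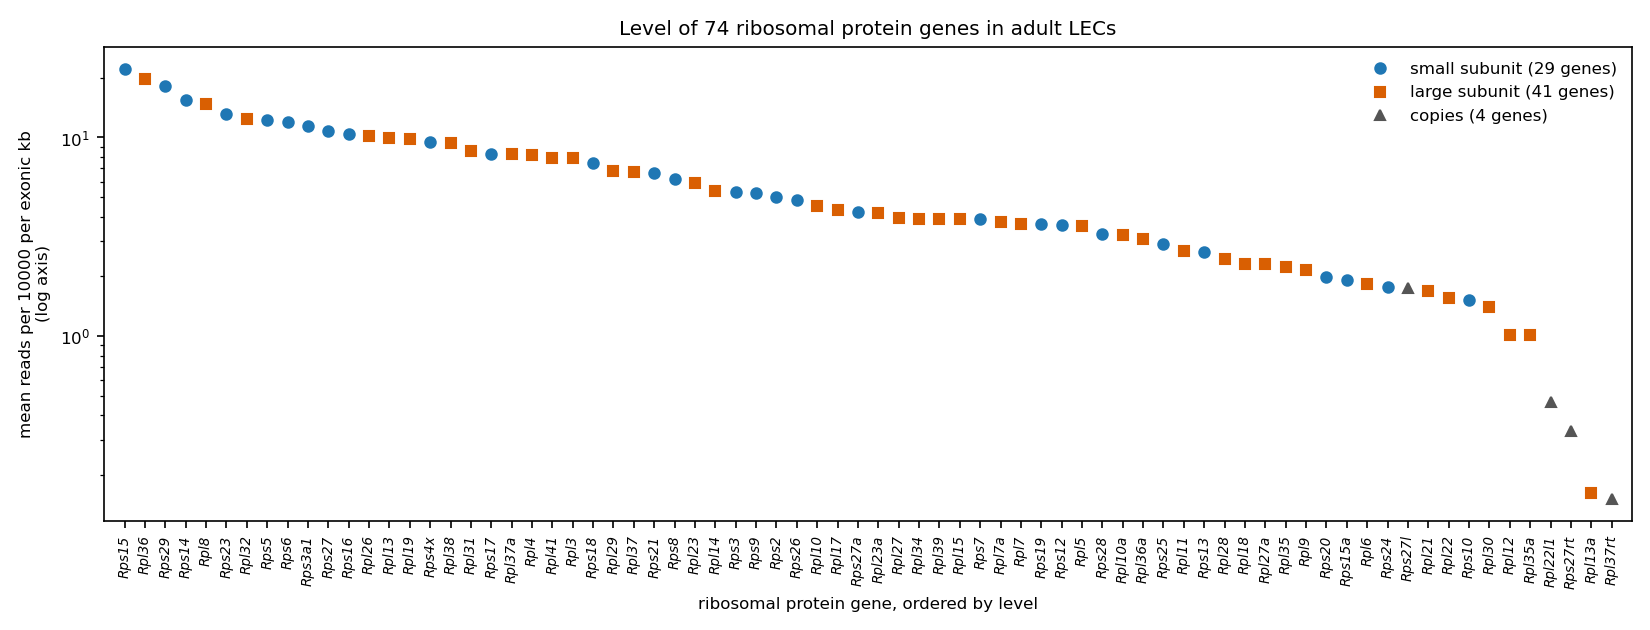
Mean reads per 10000 per exonic kb (log axis) of 74 of the 76 ribosomal protein genes over the adult LECs, ordered from high to low, with small subunit genes as circles, large subunit genes as squares and copies as triangles. Most genes form a smooth slope from 22.2 to 1.01, below which lie 3 of the copies and *Rpl13a*.

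Presence in cells followed the same pattern. *Rpl3*, *Rpl4* and *Rpl13* were found in every cell, and 71 genes were found in at least 94% of cells. A cell held a median of 75 of the 76 genes. Just inside the 50% threshold were *Rps6kb1* (52.3% of cells), *Rps6ka3* (57.96%) and *Rpl37rt* (60.5%). Just outside it were *Rpl7l1* (49.3%), *Rps3a2* (45.4%) and *Rps3a3* (39.4%).

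The 19 genes under the threshold were 8 copies, 10 genes of other proteins with a similar symbol, and 1 ribosomal protein itself, *Rpl24* of the large subunit. *Rpl24* was found in 33.97% of cells at a mean of 0.0301 reads per 10000. The 10 others were *Rpl7l1*, a nucleolar protein related to Rpl7, *Rps19bp1*, which binds Rps19, and the kinase genes *Rps6ka1*, *Rps6ka2*, *Rps6ka4*, *Rps6ka5*, *Rps6ka6*, *Rps6kb2*, *Rps6kc1* and *Rps6kl1*.

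*Rpl24* and *Rpl13a* were compared with the gene annotation, since both proteins are part of every ribosome. In GENCODE M21 (GRCm38, the authors' mm10) *Rpl24* lies at chr16:55966275-55971435 on the plus strand, and 83.4% of its coding bases lie inside exons of *Gm28037* on the same strand. *Rpl13a* (chr7:45125558-45128761, minus strand) has 90.3% of its coding bases inside exons of *Gm45713*. *Rps10* (chr17:27630418-27636669, minus strand) has 80.1% inside exons of *RPS10-NUDT3*. No other gene of 73 ribosomal proteins compared had over 80% of its coding bases in another gene of its strand. Per coding kb, *Rpl24* (0.0638 reads per 10000) and *Rpl13a* (0.521) were the lowest and second lowest of the 73, and *Rps10* (6.18) was the fourth lowest. The lowest of the other 70 genes was *Rpl12* with 5.93, and their median was 19.9.

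Outside the 73 genes, the copy *Rpl36al* has 95.3% of its coding bases in *Gm49383* and was found in 7.24% of cells. No rows named *Gm28037*, *Gm45713*, *Gm49383* or *RPS10-NUDT3* were analysed here. How reads that fall in 2 genes were counted is not given in the sources used here, and its part in these low levels was not tested. The values of these 4 genes are therefore uncertain as levels of expression.

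**Figure D2:**
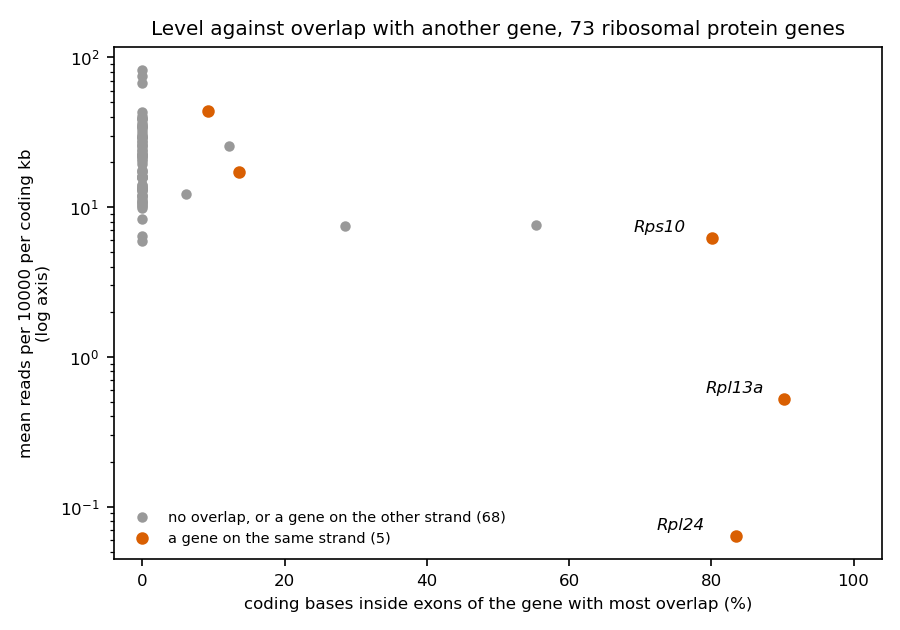
Mean reads per 10000 per coding kb (log axis) of 73 ribosomal protein genes against the share of coding bases inside exons of the gene with most overlap; orange points overlap a gene on the same strand. *Rpl24*, *Rpl13a* and *Rps10* lie at 80% or more, with levels of 0.0638, 0.521 and 6.18, while the other genes lie at 5.93 or higher.

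Several copies are used far less than their parents, and how well reads can be assigned differs between them. The first 60 coding bases of *Rps27* and its copies show the range, with capitals for bases that differ from *Rps27*.

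*Rps27*: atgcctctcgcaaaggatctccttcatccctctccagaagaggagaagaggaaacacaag
*Rps27rt*: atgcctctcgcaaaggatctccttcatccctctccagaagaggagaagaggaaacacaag
*Rps27l*: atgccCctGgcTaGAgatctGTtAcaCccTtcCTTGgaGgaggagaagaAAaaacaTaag

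Over the whole coding sequence *Rps27rt* (chr9:114982366-114982739, minus strand) did not differ from *Rps27* (chr3:90212522-90213651, minus strand), and 91.1% of its stretches of 50 bases occur in *Rps27* as well. Its 3.10% of the parent's level per kb can therefore not be assigned to either gene with certainty. *Rps27l* (chr9:66946086-66949516, plus strand), which encodes a protein very close to Rps27, differed at 60 coding bases (76.2% identity). Its reads reached 16.3% of *Rps27* per kb, with 1.43 ± 1.51 against 11.2 ± 6.08 reads per 10000 (SD over cells). In 6 cells *Rps27l* was above *Rps27*.

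*Rpl22l1*, whose protein can stand in for Rpl22 in the large subunit, was the copy with the highest level relative to its parent. It was found in 80.5% of cells at 0.931 ± 1.12 reads per 10000 against 4.55 ± 2.85 for *Rpl22*, or 29.97% per kb, and lay above its parent in 56 cells. *Rps4l* reached 12.5% of *Rps4x* per kb in 35.7% of cells, and *Rpl7l1* reached 5.50% of *Rpl7*. *Rpl37rt* reached 2.26% of *Rpl37*, *Rpl6l* 0.618% of *Rpl6*, *Rpl36al* 0.490% of *Rpl36a*, *Rps3a3* 0.402% and *Rps3a2* 0.347% of *Rps3a1*, *Rpl32l* 0.0300% of *Rpl32* and *Rpl3l*, a copy known from muscle, 0.0136% of *Rpl3*. *Rpl39l*, known from testis, had no read in any cell, which allows a share of cells with a read of up to 0.356% and sets no limit on the share that express it.

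Across the cells a copy and its parent ran together only weakly, with a Spearman's rho of 0.15 for *Rps27l*, 0.12 for *Rpl22l1* and −0.03 for *Rps4l* (the 2 genes of a pair share the depth of each cell). It was 0.33 for *Rps27rt* and 0.29 for *Rps3a2*, which share 91.1% and 76.7% of their stretches of 50 bases with the parent, and 0.35 for *Rps3a3*.

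Rows marked -ps took few reads. Together they held a median of 0.200% of a cell's reads, 8 rows had no read at all, and 23 were found in at least 50% of cells. The highest was *Rpl9-ps6* with 4.75 reads per 10000, or 71.7% of the reads of *Rpl9*, followed by *Rps13-ps2* with 3.40 and *Rpl35a-ps6* with 2.09. Only 5 of the rows had a mean of at least 1 read per 10000. Reads of a parent and a near-identical pseudogene cannot be told apart with certainty.

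At the median, ribosomal protein genes varied less over the cells than other genes. The coefficient of variation (CV, SD over mean) had a median of 0.585 over the 76 genes, against 1.45 over 2919 genes found in at least 50% of cells. Since the CV falls with level, 320 genes with at least 5 reads per 10000 were set side by side. There the 63 ribosomal protein genes had a median CV of 0.563 and the others one of 0.765. Their median levels were 10.3 and 8.19 reads per 10000, so the cut did not fully match them for level. Of the 50 genes with the lowest CV, 30 were ribosomal protein genes.

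*Rpl13* had the lowest CV of the members (0.439), with reads per 10000 from 0.165 to 81.9 around a median of 25.1. *Rps23* (0.462) and *Rps14* (0.474) were also among the 5 lowest. The highest values belonged to *Rpl37rt* (2.40), *Rps27rt* (1.78), *Rpl13a* (1.52), *Rpl22l1* (1.20) and *Rps27l* (1.05), which all had low levels. Among members above 5 reads per 10000, *Rps21* was highest with 0.848. Across the 72 genes, CV and level had a Spearman's rho of −0.72.

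**Figure D3:**
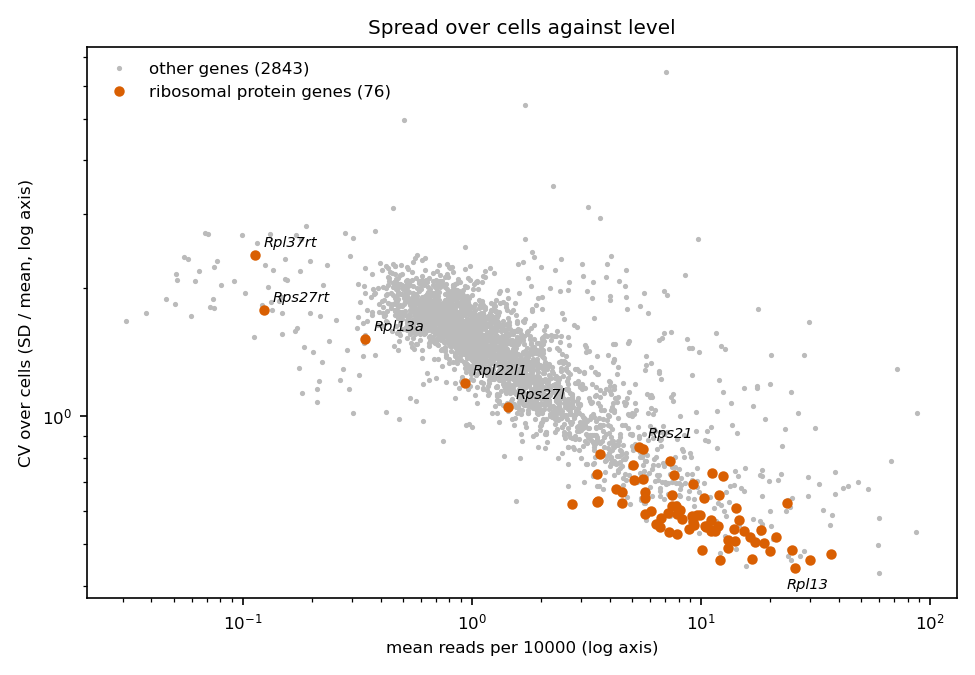
CV over cells against mean reads per 10000 (both log axes) for 76 ribosomal protein genes (orange) and 2843 other genes found in at least 50% of cells (grey). Most ribosomal protein genes lie at the lower right edge, with CVs from 0.439, while the copies and *Rpl13a* lie among low genes with CVs above 1.

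The genes moved together from cell to cell. The median Spearman's rho over all pairs of the 76 genes was 0.30, and 100% of pairs were above 0. Over all pairs of the 2919 genes the median was 0.03. The 2919 genes were not matched to the members for level, and their median level was lower. The part of level in this difference of rho was not tested. Taken relative to a cell's summed ribosomal protein reads, the median over pairs of the 76 genes was 0.0020. Division by the sum of the same genes itself draws pairs towards 0 or below, so no conclusion is drawn from this value. *Rps14* ran most closely with the sum of the other members (rho 0.74), followed by *Rps23* and *Rps27* (both 0.71). *Rpl13a* (0.15), *Rpl22l1* (0.21), *Rps27l* (0.23) and *Rps27rt* (0.28) did so least. Outside the members, the genes most like the sum were *Rplp2* of the ribosomal stalk (0.71), *Gm10076* (0.71), *Rplp1* (0.69), *Gm10095* (0.65) and *Gm3511* (0.65), followed by the elongation factor *Eef1a1* (0.64). *Gm10076* shares 17.6% of the stretches of 50 bases of *Rpl41*. The most negative were *Srsf2* (−0.29), a splicing factor, the water channel *Aqp1* (−0.26) and *Flt4* (−0.25).

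The cells were then split by each of 3 genes that the study uses to name LEC classes. *Stab2*, a scavenger receptor for hyaluronan, marks Ptx3+ capillary LECs there, *Fndc1* marks Ptx3- capillary LECs, and *Cldn11*, a claudin of tight junctions, marks valve LECs. A cell counted as positive where the deposited natural log value was above 1, and was compared with all other cells. *Stab2* was above 1 in 31.2% of cells, *Fndc1* in 16.9% and *Cldn11* in 17.9%, while 40.3% had none of the 3 above 1 and 51 cells had more than 1 of them. A gene was called where the log2 ratio of mean reads per 10000 was at least 0.3 or at most −0.3. With 1 pooled sample no p-value is given. The background is all 2919 genes found in at least 50% of cells, which were not matched to the members for level. Their median level was 1.23 reads per 10000, against 9.22 for the 76 genes.

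In *Stab2* cells the ribosomal protein share was lower. It was 1.21% at the lowest, 6.99% at the median and 17.6% at the highest, with a mean of 6.96 ± 2.25% (SD). In the other cells it was 0.564%, 7.94% and 22.7%, with a mean of 8.17 ± 2.69%. The ranges overlapped almost fully, and 69.2% of the *Stab2* cells lay below the median of the others. The log2 ratio of the means was −0.23, and the difference was smaller than either SD over cells. Median reads were 368560 in *Stab2* cells and 350281 in the others, and median mitochondrial shares were 1.82% and 1.72%.

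All 76 genes had a log2 ratio below 0, against 46.8% of the 2919 genes, and none was above 0, against 53.2%. Their median was −0.24, and that of all genes was 0.03. At −0.3 or below were 15 of the 76, or 19.7%, against 13.3% of all genes, and none was at 0.3 or above, against 18.4%. The pattern is thus a small shift shared by the whole group and not a large one in a few genes. Small subunit genes (median −0.25) and large subunit genes (−0.23) were shifted alike.

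Lowest was *Rpl13a* with a log2 ratio of −0.52, at 0.264 ± 0.422 reads per 10000 in *Stab2* cells and 0.379 ± 0.559 in the others. It was found in 55.1% and 69.1% of them, and its level is uncertain as described above. *Rpl37rt* (−0.49), *Rps3a1* (−0.37), *Rps21* (−0.37) and *Rpl36a* (−0.35) followed. *Rps3a1*, of the small subunit, had 0, 9.19 and 38.03 reads per 10000 at the lowest, median and highest *Stab2* cell, against 0, 11.4 and 67.1 in the others. *Rps14*, the member with most reads, had means of 32.7 ± 14.9 and 39.2 ± 18.3 (log2 ratio −0.26). Nearest to 0 were *Rpl22l1* (−0.06), *Rps3* (−0.08), *Rps2* (−0.09), *Rpl35* (−0.10) and *Rpl3* (−0.11).

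How many genes passed −0.3 varied with the cells compared. It was 31 of 76 against the cells with none of the 3 markers (15% of all 2919 genes), where the log2 ratio of the sum was −0.27. It was 50 where *Stab2* had to be above 2 (18.7% of all genes, log2 ratio −0.31), and 2 with *Stab2* merely found (7.64%, −0.11). With the cells in 3 equal bins by reads, lowest to highest, the log2 ratio of the sum was −0.28, −0.28 and −0.12. In these bins 34, 33 and 3 genes were at −0.3 or below, against 20.9%, 21.2% and 16.2% of all genes, so the count in the highest bin was under its background. Below 0 were 74, 76 and 70 of the 76, against 49.2%, 47.4% and 47.6%. Without the 52 wells with *Xist* and a Y chromosome gene the log2 ratio of the sum was −0.23, and so it was without the 3 cells with immune or fibroblast markers. The summed immune genes had a median of 0 in both groups, and a mean of 0.134 reads per 10000 in *Stab2* cells and 0.680 in the others, or 0.216 without the cell with the most (269.2). At least 3 of 5 blood endothelial genes were found in 14.1% of *Stab2* cells and 8.12% of the others, and without these 84 cells the log2 ratio was −0.22, with 10 genes at −0.3 or below (background 13.6%) and all 76 below 0 (background 47.7%), so the count at −0.3 was near its background. The part of blood endothelial or immune reads in the result was not otherwise tested.

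**Figure D4:**
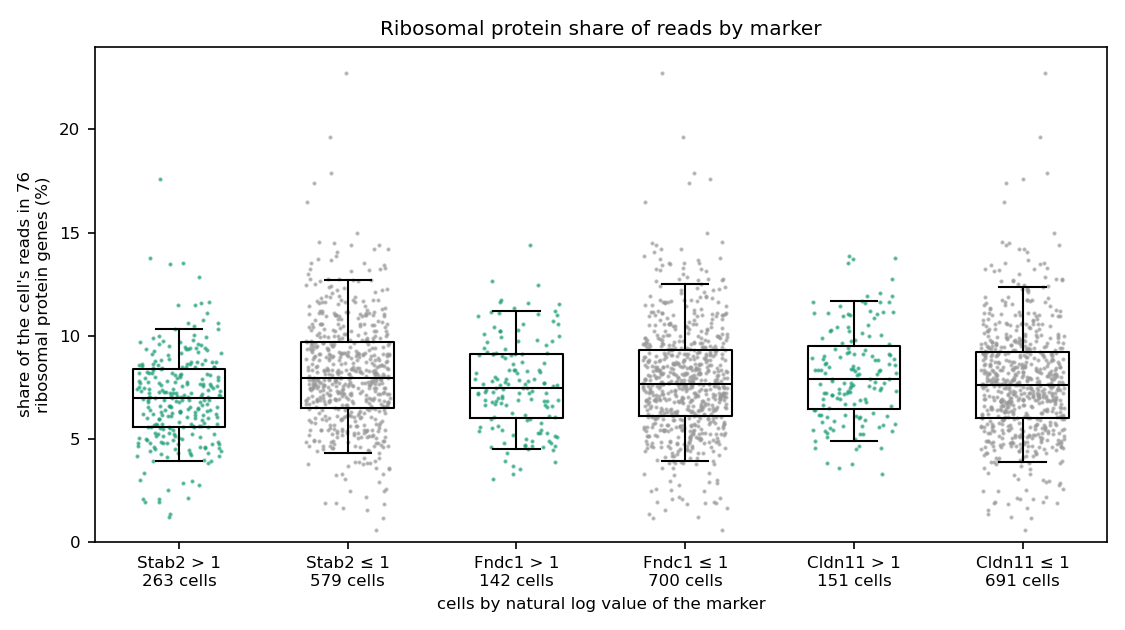
Share of each cell's reads in 76 ribosomal protein genes (%), with 1 point per cell, boxes for the middle 50% and median, and whiskers from the 5th to the 95th percentile. Cells with *Stab2* above 1 have a median of 6.99% against 7.94% in the others, and the other 2 pairs lie closer together (7.46% and 7.67% for *Fndc1*, 7.91% and 7.58% for *Cldn11*).

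*Fndc1* cells had a share of 3.06% at the lowest, 7.46% at the median and 14.4% at the highest, with a mean of 7.61 ± 2.22% (SD), against 7.83 ± 2.69% in the other cells. The log2 ratio of the sum was −0.04. It turned positive within the lowest (0.03) and middle (0.02) bin of cells by reads and was −0.16 within the highest, and *Fndc1* cells had more reads (median 460124 against 335356). Against the cells with no marker it was −0.16. Of the 76 genes, 49 were below 0 (background 52.8%) and 27 above (background 47.2%). At −0.3 or below were 2 (background 17.2%) and at 0.3 or above none (background 12.4%). The calls were fewer than in this background, which was not matched for level.

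The 2 genes called were *Rps3* (−0.32), a small subunit protein with a role in DNA repair as well, and *Rpl41* (−0.32), the smallest ribosomal protein. *Rps3* had 19.7 ± 9.89 reads per 10000 in *Fndc1* cells and 24.6 ± 15.6 in the others, and *Rpl41* 7.69 ± 5.13 and 9.56 ± 6.62. Both SDs exceeded the difference. Next were *Rpl3* (−0.26), *Rps27rt* (−0.25) and *Rps27* (−0.22). The highest ratios were those of *Rpl37rt* (0.29), *Rpl21* (0.18), *Rps27l* (0.13), *Rpl11* (0.13) and *Rpl12* (0.12).

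*Cldn11* cells had a share of 3.27% at the lowest, 7.91% at the median and 13.9% at the highest, with a mean of 8.12 ± 2.26% (SD), against 7.72 ± 2.69% in the other cells. The log2 ratio of the sum was 0.07, and 62 of 76 genes were above 0 (background 45.6%) and 14 below (background 54.4%). None was at 0.3 or above (background 6.00%) or at −0.3 or below (background 13.5%). The direction depended on the cells compared: against the cells with no marker the log2 ratio was −0.03, with 56 of 76 genes below 0 (background 54.5%), and with *Cldn11* above 2 it was −0.04, with 57 below 0 (background 56%). The other cells of the main comparison include the *Stab2* cells.

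*Rps3* had the highest ratio with 0.23, at 27.1 ± 16.99 reads per 10000 in *Cldn11* cells and 23.1 ± 14.3 in the others. It was followed by *Rps18* (0.16), *Rps3a1* (0.16), *Rpl22l1* (0.15) and *Rps12* (0.15). The lowest were *Rps27l* (−0.20), *Rpl37rt* (−0.20), *Rps27rt* (−0.13), *Rps10* (−0.09) and *Rpl12* (−0.06). *Rps3* was thus the lowest member by *Fndc1* and the highest by *Cldn11*, with both comparisons sharing most of their other cells.

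**Figure D5:**
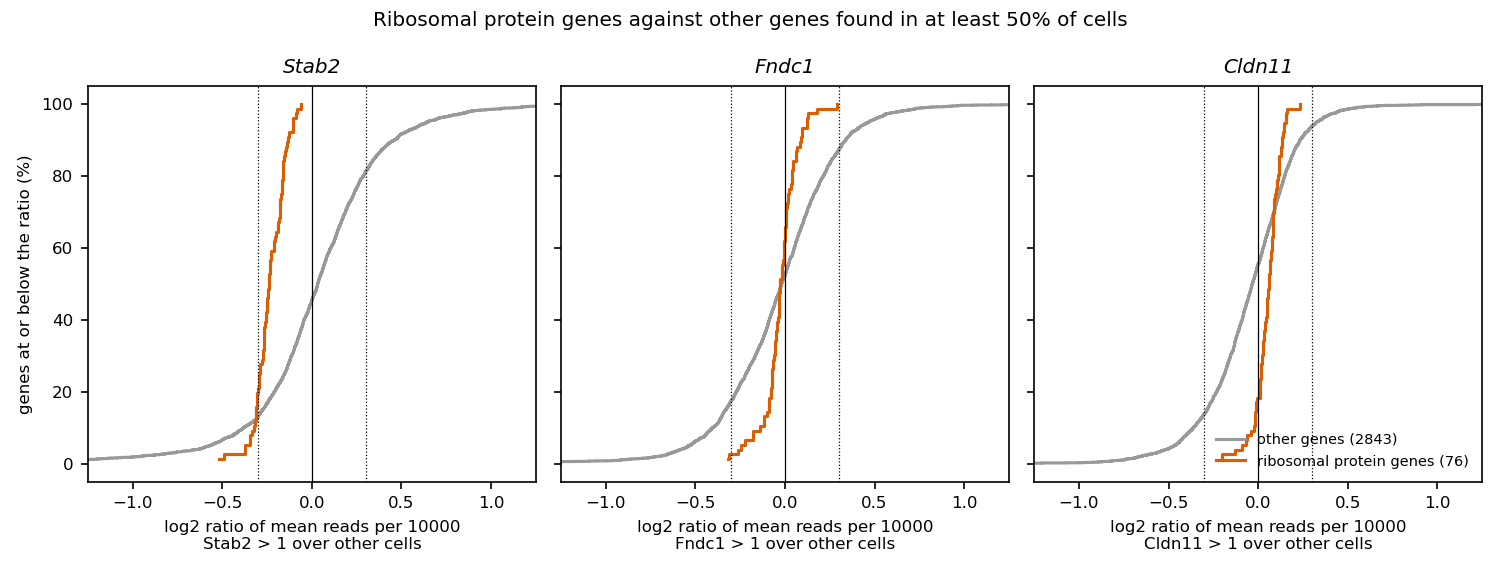
Cumulative share of genes (%) against the log2 ratio of mean reads per 10000 in cells with the marker above 1 over all other cells, for 76 ribosomal protein genes (orange) and 2843 other genes (grey), with dotted lines at −0.3 and 0.3. The ribosomal protein curve lies wholly below 0 for *Stab2*, and crosses 0 for *Fndc1* (49 genes below) and *Cldn11* (14 genes below).

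Genes that work with the ribosome were read from lists drawn up by their known role, and their counts stand against the same shares of all 2919 genes. By *Stab2* these were 46.8% below 0, 13.3% at −0.3 or below and 18.4% at 0.3 or above, by *Fndc1* 52.8%, 17.2% and 12.4%, and by *Cldn11* 54.4%, 13.5% and 6.00%. Of the other cytosolic ribosomal proteins, *Rpsa*, *Rplp0*, *Rplp1*, *Rplp2* and *Fau* were found in at least 50% of cells, and all 5 were below 0 by *Stab2*, from *Rplp1* (−0.35) to *Rplp0* and *Fau* (both −0.16). Of 20 genes of translation, 15 were below 0 by *Stab2* (median −0.16), and 2 (10%, under the background of 13.3%) were at −0.3 or below, the elongation factor subunit *Eef1d* (−0.34) and the initiation factor *Eif4b* (−0.33). *Eif3a* (0.16) and the poly(A) binding protein *Pabpc1* (0.08) were highest. By *Fndc1*, 16 of the 20 were below 0 (median −0.07, lowest *Eif3e* with −0.29 and *Pabpc1* with −0.28, highest *Eif4b* with 0.19 and *Rack1* with 0.11). By *Cldn11*, 4 were (median 0.07), with *Npm1* (0.31) and *Eif3f* (0.21) highest and *Nap1l1* (−0.11) and *Tpt1* (−0.08) lowest.

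Genes of ribosome assembly were less often found, with 11 of 30 present in at least 50% of cells. By *Stab2* their median was −0.08, and *Gnl3* (−0.47) and *Nop10* (−0.41) were called lower and *Ubtf* (0.30), a factor of ribosomal RNA transcription, higher. By *Fndc1* it was −0.25, with *Ddx21* and *Gnl3* (both −0.37) called lower, and by *Cldn11* 0.11, with the methyltransferase *Fbl* (0.40) called higher and *Ubtf* (−0.32) lower. Of 78 mitochondrial ribosomal proteins, 10 were found in at least 50% of cells, and by *Stab2* 5 of these were at −0.3 or below (lowest *Mrpl17* with −0.56 and *Mrps33* with −0.46) and 2 at 0.3 or above (*Mrpl33* with 0.55 and *Mrpl20* with 0.49). The shares of all 2919 genes were 13.3% at −0.3 or below and 18.4% at 0.3 or above. Of the 10, 7 were below 0 (46.8% of all genes), and their median of −0.23 was close to the −0.24 of the 76 cytosolic genes. Unlike the cytosolic ones, some of these low genes were above 0.

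Of 19 regulators of mTOR and of the pyrimidine-tract messages with a row, 8 were found in at least 50% of cells. By *Stab2* 7 of these were above 0 (median 0.22), with *Larp1* (0.39) and *Tial1* (0.29) highest and *Rheb* (−0.10) and *Max* (0.10) lowest. By *Fndc1* the median was −0.07, with *Eif4g1* (−0.31) called lower, and by *Cldn11* it was −0.11, with *Larp1* (−0.50) and *Eif4g1* (−0.36) lower and *Max* (0.33) higher. The 2 kinases caught by the symbol rule had few reads. *Rps6kb1*, the S6 kinase that phosphorylates Rps6, was at 0.562 ± 1.03 reads per 10000 with log2 ratios of −0.10 by *Stab2* and 0.17 by *Cldn11*. *Rps6ka3*, which encodes the kinase RSK2, was at 0.662 ± 1.08 and had log2 ratios of 0.49 by *Stab2* and −0.37 by *Cldn11*, at 0.826 ± 1.31 reads per 10000 in *Stab2* cells and 0.587 ± 0.953 in the others. Of 10 proliferation genes only *Pcna* was found in at least 50% of cells (69.95%), and *Mki67* was found in 3.92%.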

How the data were processed

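Single LECs of the pooled adult mucosa were measured in 842 cells, from 1536 wells listed. *Stab2* was above 1 in 263 cells, *Fndc1* in 142, *Cldn11* in 151 and none of them in 339. Per their methods and the submitters' processing notes, the authors used STAR and mm10 for alignment and featureCounts (Subread) for counting, dropped cells below 2000 genes or above 10% mitochondrial reads, and normalised with Seurat 4.1.0. The deposited matrix holds natural log values of reads per 10000 with 1 added. The study's methods call the step log2, but only as natural log does every cell sum to 10000. Strand, multi-mapping and overlap settings and the annotation are not given in the sources used here. Whole reads were recovered in 100% of values (tolerance 0.01 reads), so the ribosomal score that the authors regressed out for clustering is not taken out of these values.

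Reads per 10000 were averaged over cells, without a pseudocount, and groups of cells with a marker above 1 were compared with all other cells as log2 ratios of means, called at 0.3 either way. The background was 2919 genes found in at least 50% of cells, not matched to the members for level. No test was made, because all cells form 1 pooled sample. The exact Clopper-Pearson interval (95%) of the share of all reads covers counting error only. Thinning to 20000 reads kept 791 cells and left out 51. Doublets were not called, and the wells with *Xist* and a Y chromosome gene were left out in an alternative. Lengths, overlaps and coordinates came from GENCODE M21 (96.1% of symbols matched) and start windows from RefSeq. Only the log2 ratio step was tested on simulated data, with each gene drawn independently of the others. The tools were SciPy 1.17.1, pandas 2.3.3 and NumPy 2.4.6 under Python 3.11.15.

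Members and lists were chosen with earlier results of these data known. Named were, by rule, the 5 highest and 5 lowest members by level per kb, by CV and by each log2 ratio, 3 genes on each side of the 50% threshold, all copies and other proteins caught, and the 2 highest and 2 lowest of other lists. *Rps14* by *Stab2*, the other genes of high overlap and those called in the lists were named after their values were seen. A few genes entered the sums and counts but are not reported here by name.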

Additional observations from a re-analysis of the deposited data

How the results depend on the processing

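The number of members was 78, and 73 after thinning, 71 with a natural log value above 1 as found and 80 over cells with at least 3000 genes. The median share of 7.64% was 7.82% without mitochondrial reads in the total, 7.67% after thinning, 7.49% with reads pooled, 7.68% in cells with at least 3000 genes and 8.34% with the 6 other ribosomal proteins added. The median rho among members was 0.26 after thinning and 0.0020 relative to summed ribosomal protein reads, where the division itself draws it towards 0. By *Stab2* the log2 ratio of the sum stayed below 0 under all 14 alternatives: −0.27 against cells with no marker, −0.11 with the marker found, −0.31 with it above 2, −0.22 after thinning, −0.18 in cells with at least 3000 genes, −0.23 as a difference of mean natural log values, and −0.28, −0.28 and −0.12 in the lowest, middle and highest of 3 equal bins of cells by reads, and −0.22 without cells with blood endothelial markers. Of the 76 genes, 15 were at −0.3 or below (13.3% of all genes). This count became 31, 2 and 50 under the first 3 of these alternatives. It became 5 in cells with at least 3000 genes (13.2%) and 3 with a pseudocount of 1 (6.24%), both under their background. In the bins it became 34, 33 and 3. At least 68 of the 76 stayed below 0 by *Stab2* under every alternative.

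By *Fndc1* the log2 ratio of the sum, −0.04, was −0.16 against cells with no marker, −0.010 with the marker found, −0.20 with it above 2, −0.045 without mitochondrial reads, −0.050 after thinning, −0.068 in cells with at least 3000 genes, −0.0085 as a difference of mean natural log values, 0.033, 0.020 and −0.16 in the bins, −0.031 without wells with *Xist* and a Y chromosome gene and −0.060 without cells with blood endothelial markers. The 2 genes at −0.3 or below (17.2% of all genes) became 8, 0 and 14 under the first 3 (16.5%, 7.37% and 22.9%). They became 0 with natural log values (2.64%) and 1 with a pseudocount (4.25%). In the bins they became 1, 0 and 8 (27.4%, 24.5% and 18.7%), and without those wells 1 (17.4%). The 0 at 0.3 or above (12.4%) became 1 with the marker found (7.16%) and above 2 (21.5%). It also became 1 in cells with at least 3000 genes (12.1%) and without those wells (12.8%). In the bins it became 4, 1 and 1 (20.6%, 19.5% and 14.8%). The 49 below 0 (52.8%) became 27 with natural log values (44.4%) and 32 and 24 in the lowest and middle bin (52.7% and 51.1%).

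By *Cldn11* the log2 ratio of 0.07 was −0.035 against cells with no marker, 0.069 with the marker found, −0.040 with it above 2, 0.072 without mitochondrial reads, 0.069 after thinning, 0.076 in cells with at least 3000 genes, 0.11 with natural log values, 0.086, 0.082 and 0.038 in the bins, 0.085 without the wells above and 0.051 without cells with blood endothelial markers. The 0 genes at −0.3 or below (13.5% of all genes) became 4 against cells with no marker (14.7%) and 4 with the marker above 2 (27.8%). They became 2 and 1 in the lowest and highest bin (24.3% and 18.2%) and 1 without those wells (14.6%). The 0 at 0.3 or above (6.00%) became 1, 2 and 1 in the bins (14.3%, 13.9% and 14.7%). The 14 below 0 became 56 against cells with no marker, 57 with the marker above 2, 6 with natural log values and 24 and 31 in the lowest and highest bin. The bins, the wells and the cells with immune, fibroblast or blood endothelial markers were chosen after seeing the data, as were all alternatives of the counts below 0. The cause of these changes was not tested. No paired analysis was possible because the labels number single cells of 1 group. Leaving out a mouse or a plate could not be done, as cells are not tied to either. Depth limits low genes, as the deepest cell held 474.2 times the reads of the shallowest, and a copy missing from a cell with few reads may be present in it.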
